A study of Homo sapiens with 12 samples.

Results

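The very long protein-coding genes of SCC15 and SCC25 cells were followed after treatment with squamocin. They were the genes annotated as protein-coding in both deposited tables whose span, the distance from the first to the last base of the gene, was at least 500000 bases, and whose mean was at least 10 normalized counts over the 6 libraries of each cell line. They were thus selected on a measured value, the mean over treated and control libraries, besides the annotation. A gene could meet this mean through the libraries of 1 treatment alone, as PLCL1 in SCC15 and SPOCK3 in SCC25 did through the control libraries. Genes with names starting FBX, USP or ZNF and 1 other gene had been set aside by the same rule, which removed 2 genes that met the span and the mean. This left 112 of the 26485 genes listed in both tables. A further 101 genes had the span but too low a mean, 27 of them in SCC15 alone, 22 in SCC25 alone and 52 in both. SCC15 and SCC25 are established human cell lines from squamous cell carcinomas of the tongue and stand for head and neck squamous cell carcinoma (HNSCC). In each cell line, 3 RNA-seq libraries came from cells kept for 24 h with squamocin at 10 µg/mL and 3 from cells kept with the solvent DMSO (12 libraries in all, and no label gives a genetic change in any group). The sample labels call the treatment ACGs, for annonaceous acetogenins, the plant compounds to which squamocin belongs, and this name is used for the treated libraries below.

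A gene of this span is mostly intron. RNA polymerase II has to travel the whole distance before a transcript of the full span is made. Output of such transcripts depends on elongation, on the removal of very long introns and on topoisomerases that relieve the twist ahead of the polymerase. The counts used here are per gene and do not show which transcript was made, so the RNA counted need not cross the whole span. Many of the longest human genes act in cell adhesion, the cytoskeleton and signalling, many are best known from neurons, and several lie in common fragile sites, regions of the genome that break when replication is disturbed.

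Each library held 16665563 to 22748845 reads on genes. SCC15 ACGs replicate 3 stood apart from its group, with a chi-square per degree of freedom of 67.9 and 60.1 against the other SCC15 ACGs libraries, compared with 1.73 to 10.7 for all other pairs within a group, so results that rest on it are also given without it. The authors' scaling set the treated libraries higher in total than the controls. With all libraries brought to the same total, the median log2 fold change of all genes shifted by -0.50 (SCC15) and -0.21 (SCC25). Changes are given below on the authors' scaling and are therefore relative to it. Of 8 markers of squamous epithelium, 8 had a mean of at least 10 in SCC25 and 6 in SCC15, where KRT5 and DSG3 did not. The summed markers of fibroblasts (4 genes) reached 382 to 641 normalized counts in the SCC15 libraries and 750.3 to 1208 in the SCC25 libraries, and those of immune cells (3 genes, of which 2 were listed in SCC25) reached 6.84 to 26.4 and 15.3 to 34.2. Endothelial markers (3 genes, of which 2 were listed in SCC15) summed to 66.1 to 77.1 with ACGs and 158 to 178 with DMSO in SCC15, and to 19.8 to 36.6 and 231 to 294 in SCC25. Neuronal markers (3 genes) summed to 25.1 to 59.7 and 51.4 to 58.5 in SCC15, and to 372 to 425 and 202 to 232 in SCC25, where SYT1 made up nearly all of it. The part of these markers in the results was not tested. In bulk RNA, fewer cells that express a gene and less RNA per cell cannot be told apart.

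The 112 genes spanned 0.501 to 2.24 Mb (median 0.686 Mb), and 17 were wider than 1 Mb. They lay on 21 chromosomes, with 15 on chromosome 3, 14 on chromosome 1 and 10 on chromosome 7. In the GENCODE 44 annotation of GRCh38, their merged exons summed to 2.83 to 59.4 kb (median 12.2 kb, in a median of 29 exon blocks), against medians of 5.37 kb and 11 exon blocks for 11465 of the 11485 other protein-coding genes with the same mean. Exons made up a median of 1.74% of the span, against 17.1% for the other genes. Their exons thus summed to more than those of the other genes, yet introns took up nearly the whole span. Another annotated gene lay wholly inside the span of 109 of them, with a median of 5 such genes and a maximum of 23, inside WWOX, and for 15 of them at least 1 of the genes inside was protein-coding. The exonic bases that a very long gene shared with another gene on either strand were a median of 0.430% of its exons and exceeded 10% for 6 genes, which were KCNIP4 (46.3%), ZBTB20 (44.9%), IQCJ-SCHIP1 (43.4%), CDH13 (21.4%), GPHN (12.7%) and ARHGAP24 (12.7%). Their counts are uncertain to that extent. For KCNIP4, CDH13, GPHN and ARHGAP24 the sharing lay on the opposite strand, and no source used here states that reads were counted by strand. For IQCJ-SCHIP1 (43.4%) and nearly all of that of ZBTB20 (43.0%) it lay on the same strand, where counting by strand would not separate the genes.

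Levels were modest. Over the 6 libraries, the means ran from 11 to 2919.6 normalized counts in SCC15 (median 263) and from 12.5 to 3656 in SCC25 (median 207), below the medians of 636 and 669 of the other protein-coding genes. Per kb of exon, the DMSO level ran from 0.544 normalized counts per kb for LRRC7 to 420.1 for SPOCK1 in SCC15. In SCC25 it ran from 0.889 for NAALADL2 to 347 for ADK, the adenosine kinase gene, which was named for this value. The tables were normalized separately, so levels are not compared between the cell lines.

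The first question was whether very long genes moved in 1 direction when squamocin was added. They moved in both directions. In SCC15, 28 rose and 41 fell (adjusted p under 0.05 with limma), which is 25% and 36.6% of the 112, beside 30.9% higher and 30% lower among the 15902 genes tested. In SCC25, 38 rose and 40 fell, which is 33.9% and 35.7%, beside 38.3% and 38.5% of 16539 genes. The other 43 genes in SCC15 and 34 in SCC25 did not pass the test. The median log2 fold change was -0.20 in SCC15 (interquartile range -0.72 to 0.31) and -0.11 in SCC25 (-0.52 to 0.48), against 0.043 and 0.019 for all genes tested in both. Fold changes are on the scale of log2(normalized count + 1), which understates the change of genes with low counts. The median by library, relative to the DMSO mean, was -0.18, -0.11 and -0.36 in the SCC15 ACGs libraries and -0.055, -0.010 and -0.13 in the SCC25 ACGs libraries. The median was below the DMSO mean in all 6 treated libraries, with replicate 3 the lowest in each cell line. The counts depended on the scaling. With equal library totals, 9 genes rose and 66 fell in SCC15 (median -0.69), and 30 rose and 51 fell in SCC25 (median -0.31), and 8 of the 28 genes called higher in SCC15 had the other sign. Without SCC15 ACGs replicate 3, 33 rose and 50 fell in SCC15, whereas 17 rose without DMSO replicate 3 and 26 and 27 fell without DMSO replicates 1 and 2. The SCC25 median was -0.044 without ACGs replicate 3.

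Since the very long genes had lower counts than other protein-coding genes, they were set beside the 11485 others at the same mean level. Weighted to the levels of the very long genes, 25.1% of the other protein-coding genes rose and 34.3% fell in SCC15, near the 25% and 36.6% of the very long genes. In SCC25 the weighted shares were 33.7% and 42.5%, against 33.9% and 35.7%. The weighted medians of the other genes were -0.15 and -0.18. At equal level, on the authors' scaling and with all libraries, the very long genes as a set thus rose about as often as others in both cell lines. In SCC25 fewer of them fell, a gap that was not tested. The match in SCC15 was less close with TMM (19.6% higher against 24.0%) and without ACGs replicate 2 (17.0% against 23.5%). Without ACGs replicate 3 the SCC15 shares were 29.5% and 31.2%. With equal library totals the corresponding shares in SCC15 were 8.04% higher and 58.9% lower for the very long genes and 10.7% and 57.1% for the others, and in SCC25 26.8% and 45.5% against 26.4% and 51.7%.

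Among the other protein-coding genes, the share that rose increased from each level bin to the next in both cell lines, and among the very long genes it was lowest in the lowest bin and highest in the highest. Of the 12 very long genes with a mean of 10 to 30 in SCC15, 0 rose and 6 fell, and of the 13 in SCC25, 0 rose and 6 fell. Among the other genes at that level, 9.40% rose and 36.9% fell in SCC15, and 16.03% rose and 43.03% fell in SCC25. At a mean of 1000 or more, 8 of 18 very long genes rose and 3 fell in SCC15, and 8 of 11 rose and 1 fell in SCC25. The shares of other genes there were 53.7% higher and 15.8% lower in SCC15 and 54.7% and 33.04% in SCC25. These bins hold few very long genes, and a gene with few reads needs a larger change to pass the test.

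**Figure D1:**
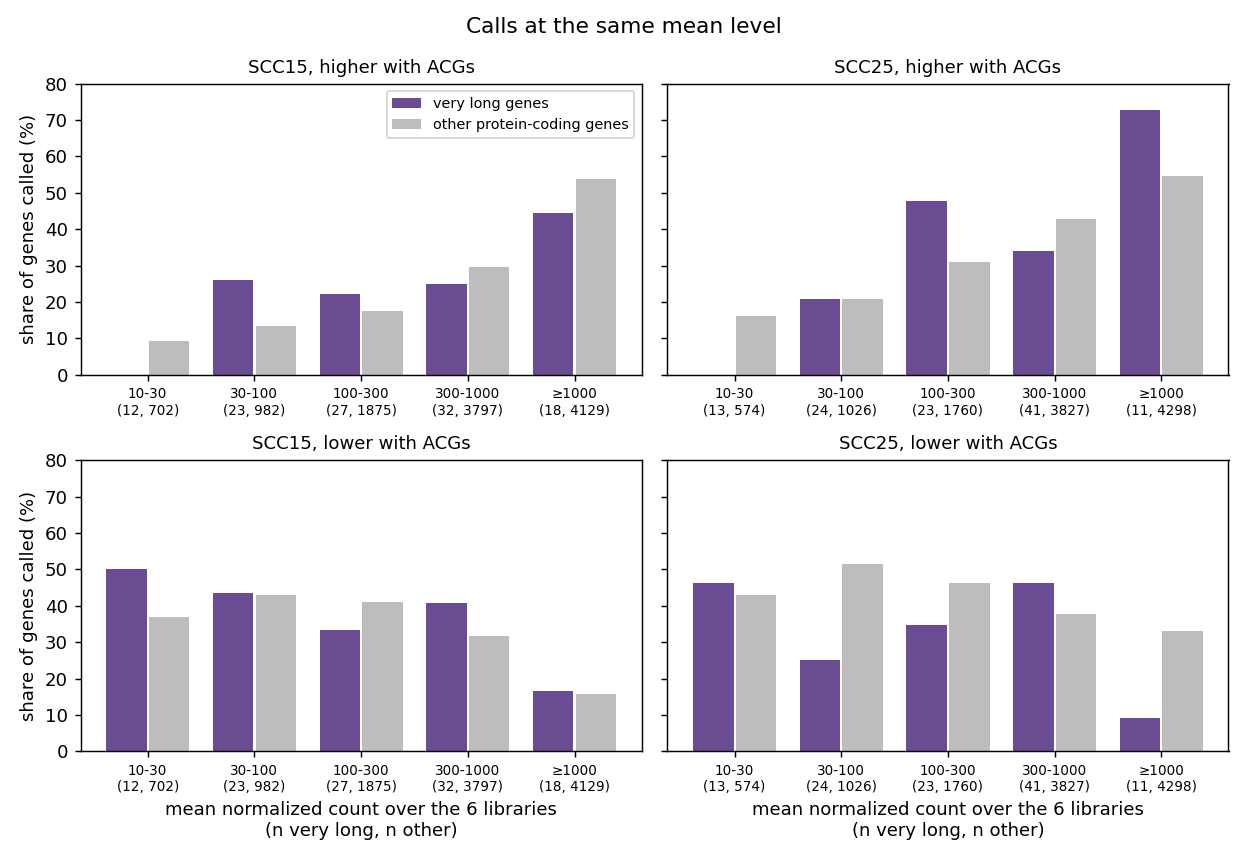
Share of genes (%) called higher (top) or lower (bottom) with ACGs in SCC15 (left) and SCC25 (right), by mean normalized count over the 6 libraries, for very long genes (purple) and other protein-coding genes (grey), with the number of genes in brackets. The grey share called higher grows with the level in both cell lines, and the purple share starts at 0 of 12 and 0 of 13 genes and ends at 8 of 18 and 8 of 11.

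Across the whole range of spans, the shares changed more with span in SCC15 than in SCC25, a contrast that was not tested. In SCC15, the share of protein-coding genes that rose went down from 46.2% of the 2256 genes under 10 kb to 17.3% of the 683 genes of 200 to 500 kb, and the share that fell went up from 22.1% to 39.1%. The very long genes, with 25% and 36.6%, did not continue this course and lay near the 200 to 500 kb bin in median log2 fold change (-0.20 against -0.24, with 0.39 for genes under 10 kb). In SCC25, the same medians were -0.11, -0.058 and 0.056, and the share that rose ran from 44.6% under 10 kb through 35.6% at 200 to 500 kb to 33.9% of the very long genes. Median levels in SCC15 were close at the ends of this course, at 502 normalized counts under 10 kb and 496 at 200 to 500 kb. They were 647 to 691 in the bins between and 263 for the very long genes, and the part of level in the course was not tested. The SCC15 medians with equal library totals were -0.10 under 10 kb, -0.74 at 200 to 500 kb and -0.69 for the very long genes. Without SCC15 ACGs replicate 3, the SCC15 medians were 0.25 under 10 kb, -0.16 at 200 to 500 kb and -0.14 for the very long genes, a smaller distance in the same order of bins.

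**Figure D2:**
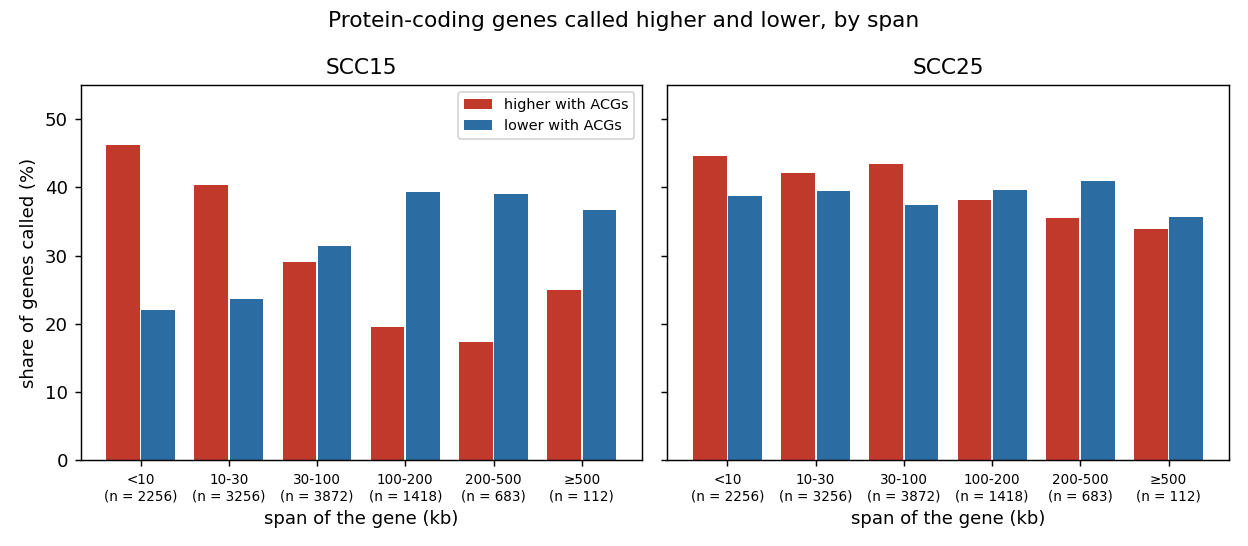
Share of protein-coding genes (%) called higher (red) or lower (blue) with ACGs, by span of the gene in kb, in SCC15 (left) and SCC25 (right), with the number of genes per bin, where the last bin holds the 112 very long genes. In SCC15 the red bars shrink from 46.2% to 17.3% before the last bin, while in SCC25 the red bars run from 44.6% to 33.9% and the blue bars from 38.7% to 35.7%.

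The second question was which very long genes responded alike in both cell lines. Of the 112, 20 rose in both (17.9%, beside 22.1% of the 14454 genes tested in both) and 19 fell in both (17.0%, beside 18.6%). The 20 that rose in both were ADK, CAMTA1, CDH13, CREB5, DENND1A, DNAH14, GMDS, HDAC9, IMMP2L, LPP, LRRC7, MCTP1, NAV3, NRG1, PTPRK, RABGAP1L, RAD51B, SPOCK1, SUPT3H and WDPCP. The 19 that fell in both were ADGRL2, ADGRV1, ANK2, ANK3, CDH4, CEP112, DOCK1, EGLN3, ERC1, KIAA1217, MAGI1, MAGI2, MECOM, PLCL1, RYR3, SNX29, TENM3, TSHZ2 and VPS13B. Opposite calls were fewer. CPQ and SMYD3, 2 of the 112, rose in SCC15 and fell in SCC25 (1.79%, beside 5.44%), and 7 fell in SCC15 and rose in SCC25 (6.25%, beside 4.66%), namely DLG2, EXOC6B, GSE1, KCNQ5, NFIA, PTPRG and SEMA3A. In SCC15 alone, 6 rose, CDKAL1, EXOC4, FAF1, FGGY, SBF2 and ULK4, and 15 fell, AKAP6, CCDC171, CDK14, DMD, INPP4B, KCNAB1, KIF26B, NBEA, PDE4D, RORA, SOX6, SYNE1, TMEM117, TTC28 and ZFHX3. In SCC25 alone, 11 rose, BCAS3, FOXP1, IQCJ-SCHIP1, MAST4, NAV2, NEGR1, PRKCE, RBMS3, RUNX1, STK3 and TBC1D5, and 19 fell, AGAP1, ARHGAP24, BANK1, CADPS2, DPYD, GRIP1, HIVEP3, LRBA, PARD3, PARD3B, PRKCA, PSD3, SCAPER, SORCS2, SPOCK3, SUGCT, SUMF1, TRAPPC9 and UTRN. The remaining 13, DNM3, FHIT, FOXP2, GPHN, KCNIP4, LRMDA, NAALADL2, SLC9A9, SPAG16, TENM2, THSD4, WWOX and ZBTB20, passed the test in neither. The genes that rose in SCC15 alone made up 5.36% of the 112, beside 4.86% of the 14454 genes, and those that fell in SCC15 alone 13.4%, beside 6.05%. For SCC25 alone the shares were 9.82% higher, beside 13.7%, and 16.96% lower, beside 13.8%, and 11.6% passed in neither, beside 10.7%. These gaps were not tested, and a call in 1 cell line does not show by itself that the lines differed. On the scale of equal library totals, 9 of the 20 genes were called higher in both, with no others (8.04%, beside 10.7% of all genes under that scaling), and 42 were called lower in both, among them all 19 (37.5%, beside 32.2%). Without ACGs replicate 3 of each cell line, all 20 and 18 of the 19 kept their calls. Calls were less steady in SCC15, where 11 of the 28 genes called higher and 16 of the 41 called lower lost the call when some single library was omitted, than in SCC25, with 2 of 38 and 7 of 40.

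**Figure D3:**
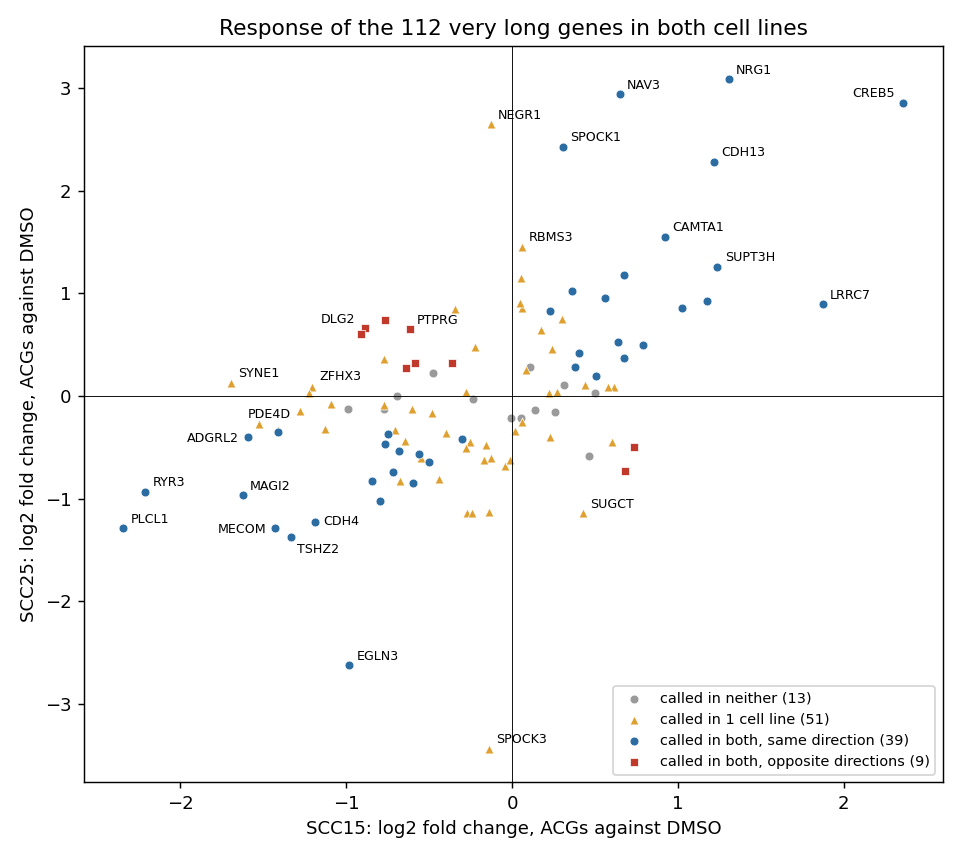
Log2 fold change with ACGs against DMSO of the 112 very long genes in SCC15 (horizontal axis) and SCC25 (vertical axis), marked by the calls in each cell line. The 39 genes called in the same direction in both (blue) lie in the upper right and lower left, with CREB5 (2.36 and 2.85) and NRG1 (1.31 and 3.08) farthest up and PLCL1 (-2.34 and -1.29) and EGLN3 (-0.98 and -2.62) among the farthest down.

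Among the genes that rose in both cell lines, CREB5, a transcription factor of the CREB and ATF family that binds cAMP response elements, rose by more than 5-fold in each and by the most when genes are ranked by the smaller of their 2 changes. In SCC15, CREB5 had 129.8, 114 and 180.4 normalized counts in the ACGs libraries and 26.4, 32.4 and 20.95 in the DMSO libraries, and in SCC25 it had 622, 619 and 599.5 and 79.8, 78.3 and 94.7. Every treated library lay above every control library, 5.14-fold higher in SCC15 (log2 fold change 2.36 ± 0.24, adjusted p = 0.000201) and 7.23-fold higher in SCC25 (2.85 ± 0.10, adjusted p = 7.68e-11). SUPT3H, which encodes a subunit of the SAGA coactivator complex, rose by nearly the same amount in both. Its values were 77.7, 86.6 and 84.6 against 27.3, 46.6 and 32.3 in SCC15 and 209.7, 192 and 211 against 74.95, 89.1 and 91.2 in SCC25, with log2 fold changes of 1.24 ± 0.23, adjusted p = 0.00251, and 1.26 ± 0.12, adjusted p = 1.11e-06. The groups did not overlap in either cell line. CDH13, a cadherin anchored to the membrane by a lipid rather than by a transmembrane segment, had 2148, 2361 and 1827 against 884, 919 and 900.0 in SCC15 (1.22 ± 0.11, adjusted p = 0.00011). The SCC25 values were 622, 706 and 729 against 153, 138 and 130.1 (2.28 ± 0.094, adjusted p = 3.26e-10). As given above, CDH13 shares exonic bases with other genes, all on the opposite strand.

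NRG1 encodes neuregulin 1, a ligand of the receptors ERBB3 and ERBB4. It had 348, 345 and 447 normalized counts with ACGs and 136, 164 and 156 with DMSO in SCC15 (1.31 ± 0.14, adjusted p = 0.000255). In SCC25 it had 1173, 1125 and 960.3 and 127, 129.5 and 124 (3.08 ± 0.087, adjusted p = 1.12e-11), the largest rise among the very long genes there at 8.47-fold. CAMTA1, a calmodulin-binding transcription activator, had 985, 996 and 1570.2 against 642, 644 and 546 in SCC15 (0.92 ± 0.19, adjusted p = 0.00417), where ACGs replicate 3 was the highest library and the log2 fold change without it was 0.70. Its SCC25 values were 1487, 1499.5 and 1388 against 524, 499 and 470.0 (1.55 ± 0.061, adjusted p = 2.19e-10). IMMP2L, a subunit of the peptidase of the mitochondrial inner membrane whose gene lies in a fragile site, had 74.2, 84.4 and 154 against 46.1, 38.7 and 45.4 in SCC15 (1.17 ± 0.28, adjusted p = 0.00862, and 0.86 without ACGs replicate 3). For SCC25 they were 296, 285 and 311 against 160.4, 148 and 161 (0.92 ± 0.094, adjusted p = 1.46e-06). LRRC7, a scaffold protein of synapses, rose more in SCC15, with 74.2, 71.8 and 43.5 against 17.1, 19.8 and 12.2 (1.87 ± 0.30, adjusted p = 0.00133), than in SCC25, with 68.6, 58.2 and 49.96 against 27.4, 39.6 and 27.4 (0.89 ± 0.22, adjusted p = 0.00292). Its difference between the cell lines was -0.98 ± 0.38 on the log2 scale (adjusted p = 0.0448, limma), and it did not pass in 9 of the 12 fits that left out 1 library. All of these genes were also called with equal library totals in both cell lines, and none of them had overlapping groups.

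Among the genes that fell in both, EGLN3, an oxygen-dependent prolyl hydroxylase that marks hypoxia-inducible factors for removal, had the largest fall in SCC25. It had 161, 179 and 149 normalized counts with ACGs and 1015, 1012 and 989.6 with DMSO there, 6.15-fold lower (-2.62 ± 0.081, adjusted p = 2.48e-11). In SCC15 it had 88.1, 82.1 and 131 and 196, 198 and 189 (-0.98 ± 0.19, adjusted p = 0.00315). The 3 libraries of each group lay clear of the other group in both cell lines. PLCL1, a relative of phospholipase C that lacks its enzyme activity, had 1.16, 5.70 and 4.98 against 26.4, 15.8 and 23.6 in SCC15 (-2.34 ± 0.52, adjusted p = 0.00627), where its counts are low. In SCC25 it had 27.96, 34.3 and 22.2 against 81.4, 64.8 and 62.8 (-1.29 ± 0.22, adjusted p = 0.000163). MECOM, the zinc finger transcription factor gene also known as EVI1, had 77.7, 86.6 and 64.7 against 189, 197 and 233 in SCC15 (-1.43 ± 0.16, adjusted p = 0.000284). The values in SCC25 were 100.4, 65.5 and 46.6 against 179, 175 and 145 (-1.28 ± 0.23, adjusted p = 0.000203). TSHZ2, a zinc finger and homeobox transcription factor, had 314, 321 and 179 against 643, 657 and 687 in SCC15 (-1.33 ± 0.22, adjusted p = 0.00157) and 5.08, 11.4 and 19.98 against 33.8, 29.7 and 24.8 in SCC25 (-1.37 ± 0.41, adjusted p = 0.00904, and -0.90, adjusted p = 0.024 without ACGs replicate 1). The fall of TSHZ2 was nearly the same size in both cell lines.

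MAGI2, a scaffold protein of cell junctions, had 9.27, 7.98 and 11.2 normalized counts with ACGs against 29.9, 37.2 and 27.1 with DMSO in SCC15 (-1.63 ± 0.28, adjusted p = 0.00188) and 27.96, 17.7 and 25.5 against 40.3, 53.1 and 46.9 in SCC25 (-0.97 ± 0.25, adjusted p = 0.00328). CDH4, the cadherin R-cadherin, had 8.11, 18.2 and 13.7 against 36.7, 20.6 and 36.7 in SCC15 (-1.19 ± 0.38, adjusted p = 0.028) and 11.4, 7.28 and 12.2 against 20.95, 17.99 and 40.7 in SCC25 (-1.23 ± 0.38, adjusted p = 0.00981). The call of CDH4 rested on single libraries. In SCC15 it was lost without ACGs replicate 1 (-0.90, adjusted p = 0.0677), DMSO replicate 1 (-1.06, adjusted p = 0.102) or DMSO replicate 3 (-1.06, adjusted p = 0.102), and in SCC25 without DMSO replicate 3 (-0.88, adjusted p = 0.0776). RYR3, a channel that releases calcium from the endoplasmic reticulum, fell steeply in SCC15, with 12.8, 9.12 and 8.71 against 52.9, 47.4 and 50.6 (-2.21 ± 0.25, adjusted p = 0.00029). In SCC25 it had 22.9, 9.36 and 13.3 against 41.1, 25.2 and 21.2 (-0.93 ± 0.37, adjusted p = 0.0353), where 1 treated library lay above 1 control library and the call was lost without ACGs replicate 2 (-0.65, adjusted p = 0.119), DMSO replicate 1 (-0.66, adjusted p = 0.178) or DMSO replicate 2 (-1.01, adjusted p = 0.0624). ADGRL2, an adhesion G protein-coupled receptor of the latrophilin family, had 47.5, 39.9 and 41.1 against 131, 127 and 136 in SCC15 (-1.59 ± 0.15, adjusted p = 0.000131) and 634, 641 and 525 against 808, 758 and 794 in SCC25 (-0.40 ± 0.079, adjusted p = 0.000536). Its fall was smaller in SCC25 by 1.2 ± 0.15 on the log2 scale (adjusted p = 3.38e-05, limma).

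**Figure D4:**
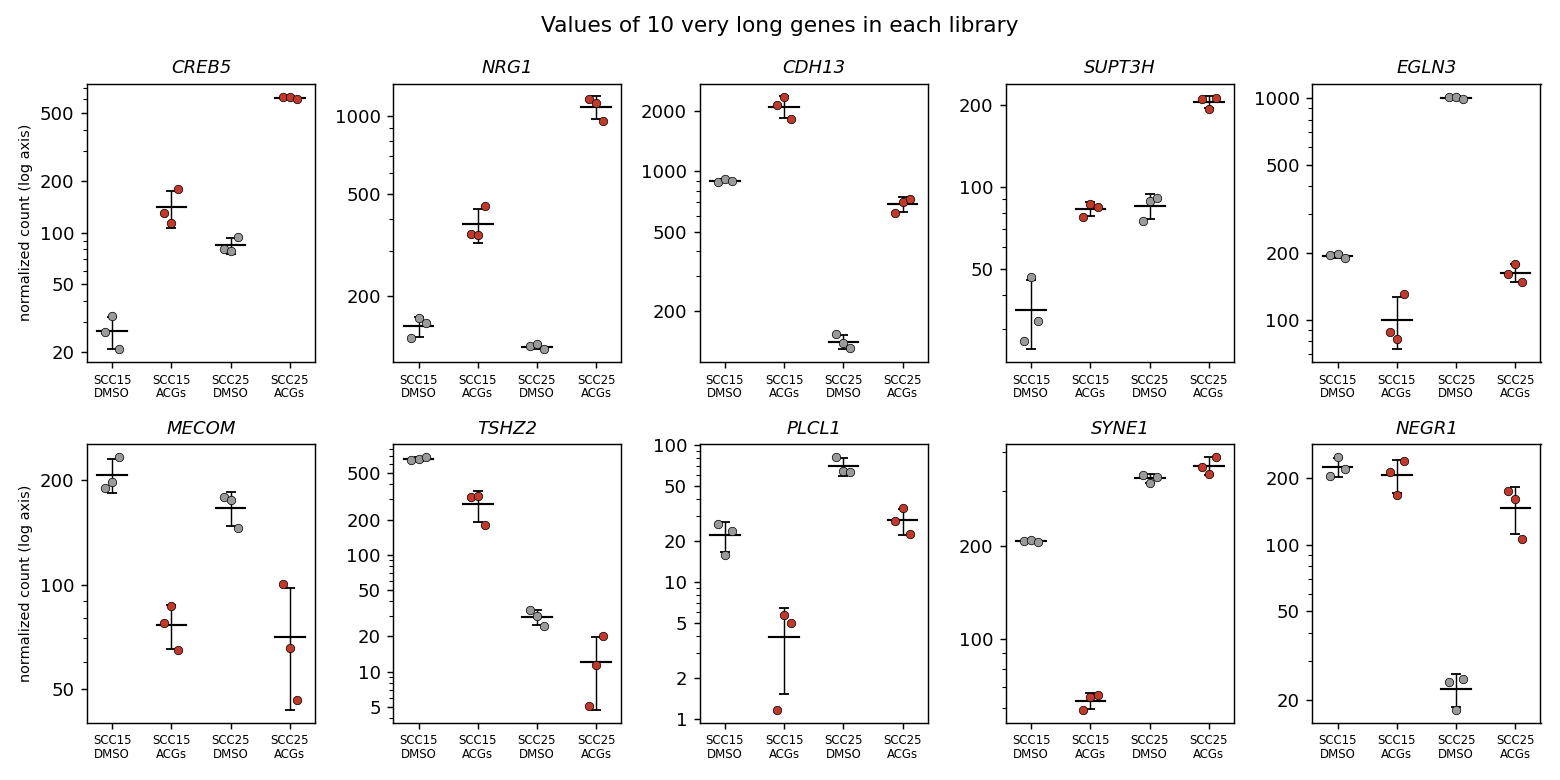
Normalized counts (log axis, scaled for each gene) of 10 very long genes in the 12 libraries, by cell line and treatment, with points for libraries (grey for DMSO, red for ACGs), long bars for group means and error bars for 1 SD. CREB5, NRG1, CDH13 and SUPT3H are higher with ACGs in both cell lines, EGLN3, MECOM, TSHZ2 and PLCL1 are lower in both, SYNE1 is lower in SCC15 and NEGR1 is higher in SCC25.

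The promoters of the very long genes were looked at, with the genes chosen for the same call in both cell lines set apart. RefSeq promoters (GRCh38.p14, from 250 bases before to 50 bases after the start of transcription) matched 94 of the 112 genes by symbol, and for 67 of them the RefSeq start lay within 1000 bases of the deposited gene start. Where a gene had several starts, the one nearest to the deposited start was used. Genes on some chromosomes were not considered for printing. Shown are 2 named genes that rose in both cell lines and 2 that fell in both, among those with such a start, SUPT3H (chr6:45377885-45378184, minus strand), IMMP2L (chr7:111562443-111562742, minus strand), TSHZ2 (chr20:52972108-52972407, plus strand) and PLCL1 (chr2:197804343-197804642, plus strand). They are written 5′ to 3′ on the strand of the gene, with matches to the motifs listed below in capitals.
SUPT3H: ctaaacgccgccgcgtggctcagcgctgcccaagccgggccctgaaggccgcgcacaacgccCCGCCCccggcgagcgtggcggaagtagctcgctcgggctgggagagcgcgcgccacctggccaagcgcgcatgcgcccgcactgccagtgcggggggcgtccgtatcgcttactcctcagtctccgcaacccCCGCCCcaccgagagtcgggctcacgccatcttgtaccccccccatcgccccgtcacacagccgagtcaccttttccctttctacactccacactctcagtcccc
IMMP2L: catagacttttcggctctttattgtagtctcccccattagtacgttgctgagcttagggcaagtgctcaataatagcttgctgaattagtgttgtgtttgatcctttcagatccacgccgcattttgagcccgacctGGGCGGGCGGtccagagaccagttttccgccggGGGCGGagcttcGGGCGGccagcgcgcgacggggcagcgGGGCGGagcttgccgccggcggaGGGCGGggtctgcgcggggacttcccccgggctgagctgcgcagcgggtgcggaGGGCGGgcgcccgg
TSHZ2: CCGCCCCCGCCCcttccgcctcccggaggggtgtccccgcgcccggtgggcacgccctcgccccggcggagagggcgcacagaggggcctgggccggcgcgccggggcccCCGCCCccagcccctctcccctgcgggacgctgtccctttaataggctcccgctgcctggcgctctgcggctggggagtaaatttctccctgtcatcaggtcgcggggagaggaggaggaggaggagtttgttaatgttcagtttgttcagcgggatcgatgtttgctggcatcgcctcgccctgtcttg
PLCL1: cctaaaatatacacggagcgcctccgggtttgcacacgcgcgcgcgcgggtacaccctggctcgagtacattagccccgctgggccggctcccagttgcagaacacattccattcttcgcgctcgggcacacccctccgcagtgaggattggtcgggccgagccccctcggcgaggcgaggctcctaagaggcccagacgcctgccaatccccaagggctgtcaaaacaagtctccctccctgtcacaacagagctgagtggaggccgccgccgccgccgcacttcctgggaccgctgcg

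In these windows, short motifs were searched on both strands, and no motif lies within another. The GC box GGGCGG was found 2 times in the SUPT3H promoter, 7 times in that of IMMP2L (with 1 pair that overlaps), 3 times in that of TSHZ2 and not in that of PLCL1. It occurred in 57.4% of the matched very long genes, 71.6% of the protein-coding genes tested and 44.95% of all promoters. Of the promoters of the genes that rose in both, 12 of 17 held it, and of those that fell in both, 11 of 18. The cAMP response element TGACGTCA, to which proteins of the CREB and ATF family bind, was found in 1.06% of the matched very long genes, 3.24% of the protein-coding genes tested and 1.85% of all promoters, and the C/EBP-ATF element TGATGNAA, which ATF4 binds with partners, in 5.32% of the matched very long genes, 1.47% of the protein-coding genes tested and 3.62% of all promoters. The C/EBP-ATF element was in 0 of the 17 promoters of genes that rose in both and in 1 of the 18 that fell in both, and the AP-1 site TGANTCA was in 0 of either. The AP-1 site was present in 5.32% of the matched very long genes, 4.27% of the protein-coding genes tested and 7.71% of all promoters, the E-box CACGTG in 5.32% of the matched very long genes, 10.2% of the protein-coding genes tested and 7.26% of all promoters, and the TATA box TATAAA in 6.38% of the matched very long genes, 5.41% of the protein-coding genes tested and 11.5% of all promoters. By base composition, 70.2% of the matched very long genes had a ratio of observed to expected CpG above 0.6 in this window, against 84.3% of the protein-coding genes tested, with a median GC content of 65.3% against 65.7%. A motif match describes the letters and does not show that a factor binds.

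The third question was which genes responded differently in SCC25 and in SCC15. In the test of the difference itself, the SCC25 response lay above the SCC15 response for 38 of the 112 genes (33.9%, beside 26.0% of 14454) and below it for 18 (16.1%, beside 26.1%). The median difference was 0.16 on the log2 scale against -0.012 for all genes tested. Under equal library totals, which raise the median difference of all genes to 0.27, 46 lay above (41.1%, beside 37.7%) and 7 below (6.25%, beside 16.6%). NEGR1, an adhesion protein of the IgLON family, had the largest difference upwards (2.78 ± 0.29, adjusted p = 6.25e-06). It had 174, 160.1 and 107 normalized counts with ACGs and 24.2, 17.99 and 24.8 with DMSO in SCC25 (2.65 ± 0.22, adjusted p = 2.3e-07), and 213, 168 and 238 and 203, 248 and 220.0 in SCC15 (-0.13 ± 0.16, adjusted p = 0.506), where the groups overlapped. NEGR1 passed the test in SCC15 as lower with equal library totals (-0.62, adjusted p = 0.00623). NAV3, a microtubule-binding protein of the neuron navigator family, differed by 2.29 ± 0.23 (adjusted p = 5.26e-06). Its values were 379, 356 and 321 against 39.5, 44.1 and 52.2 in SCC25 (2.94 ± 0.14, adjusted p = 9.25e-10) and 565, 608 and 379 against 344, 312 and 313 in SCC15 (0.65 ± 0.18, adjusted p = 0.0153). The SCC15 call of NAV3 was lost without DMSO replicate 2 (0.63, adjusted p = 0.0552) or DMSO replicate 3 (0.63, adjusted p = 0.0547) and with equal library totals (0.15, adjusted p = 0.585). SPOCK1, a proteoglycan of the testican family, differed by 2.12 ± 0.24 (adjusted p = 1.21e-05), with 123, 131 and 139 against 33.8, 18.9 and 20.4 in SCC25 (2.43 ± 0.22, adjusted p = 5.51e-07) and 3308, 3527 and 2868 against 2613, 2611 and 2590.1 in SCC15 (0.31 ± 0.098, adjusted p = 0.0276). The small SCC15 rise of SPOCK1 had the other sign with equal library totals (-0.19) and lost its call when any SCC15 library other than ACGs replicate 3 was left out (adjusted p from 0.0686 to 0.0964).

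In the other direction, SPOCK3, another testican, was close to absent from treated SCC25 cells. It had 2, 3 and 0 reads with ACGs and 40, 29 and 22 with DMSO, and the ratio of the summed reads scaled by library totals was 0.0625 (95% exact binomial interval 0.0198 to 0.151, counting error only). No treated library held more than 3 reads, so the fitted change (-3.43 ± 0.57, adjusted p = 0.000125) depends on the value added before taking logs. In SCC15, SPOCK3 had 25.5, 39.9 and 21.2 normalized counts with ACGs and 30.7, 28.5 and 33.2 with DMSO (-0.14 ± 0.28, adjusted p = 0.686), and the groups overlapped. Its fitted difference was -3.30 ± 0.67 (adjusted p = 0.00123). EGLN3, described above, fell further in SCC25 (difference -1.64 ± 0.21, adjusted p = 3.39e-05). SUGCT, an enzyme that transfers coenzyme A to glutarate, had 16.5, 17.7 and 6.66 against 33.8, 26.1 and 27.4 in SCC25 (-1.14 ± 0.37, adjusted p = 0.0126) and 45.2, 68.4 and 60.97 against 58.01, 46.6 and 27.9 in SCC15 (0.43 ± 0.30, adjusted p = 0.248), a difference of -1.57 ± 0.51 (adjusted p = 0.0194). In SCC25, SUGCT lost its call without DMSO replicate 1 (-1.03, adjusted p = 0.058) and fell by less without ACGs replicate 3 (-0.73, adjusted p = 0.0332), and the difference lost its call without SCC15 DMSO replicate 3 (-1.28, adjusted p = 0.0539).

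SYNE1, the nuclear envelope protein nesprin-1, fell 3.24-fold in SCC15 and did not pass the test in SCC25. It had 59.1, 64.97 and 65.9 normalized counts with ACGs and 206, 209 and 206 with DMSO in SCC15 (-1.69 ± 0.12, adjusted p = 4.78e-05), and 359.7, 340.0 and 386 and 339, 318 and 334 in SCC25 (0.13 ± 0.080, adjusted p = 0.153). The difference was 1.83 ± 0.13 (adjusted p = 3.94e-07). In SCC25 the treated libraries lay just above the controls, and the sign of this small value turned with equal library totals (-0.076).

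Of the genes with opposite calls, NFIA, a transcription factor of the nuclear factor I family, had 220.2, 197 and 213 normalized counts with ACGs against 344, 383 and 347 with DMSO in SCC15 (-0.77 ± 0.10, adjusted p = 0.000675) and 589.7, 713 and 548 against 369.9, 356 and 378 in SCC25 (0.74 ± 0.092, adjusted p = 9.97e-06). KCNQ5, a voltage-gated potassium channel, had 34.8, 43.3 and 49.8 against 72.5, 75.1 and 95.2 in SCC15 (-0.91 ± 0.20, adjusted p = 0.00626) and 273, 240.2 and 223 against 149, 172 and 163 in SCC25 (0.60 ± 0.11, adjusted p = 0.00027). For both genes all treated libraries lay below the controls in SCC15 and above them in SCC25, both calls of each were kept with equal library totals, and the responses differed by 1.5 ± 0.15 (adjusted p = 3.63e-06) and 1.51 ± 0.23 (adjusted p = 0.000126). SEMA3A, a secreted guidance molecule of the semaphorin family, had log2 fold changes of -0.64, adjusted p = 0.00171 in SCC15 and 0.27, adjusted p = 0.012 in SCC25, the latter call lost without DMSO replicate 2 or 3 (0.24, adjusted p = 0.0531 to 0.0567) and with equal library totals (0.064, adjusted p = 0.494). EXOC6B, a subunit of the exocyst, had -0.36, adjusted p = 0.0234 and 0.32, adjusted p = 0.000113, with the SCC15 call lost without DMSO replicate 1, 2 or 3 (-0.33 to -0.39, adjusted p = 0.0591 to 0.0905) and the SCC25 call lost with equal library totals (0.12, adjusted p = 0.0638). GSE1 had -0.59, adjusted p = 0.0168 and 0.32, adjusted p = 3.04e-05, with the SCC15 call lost without DMSO replicate 1, 2 or 3 (-0.57 to -0.60, adjusted p = 0.05004 to 0.0594). In the opposite sense, CPQ, a carboxypeptidase, had 575, 599.6 and 587 against 364, 367 and 364 in SCC15 (0.68 ± 0.082, adjusted p = 0.000404) and 20.3, 16.6 and 19.98 against 29.01, 37.8 and 30.1 in SCC25 (-0.73 ± 0.25, adjusted p = 0.0194). SMYD3, a lysine methyltransferase, had 391.8, 484 and 628 against 305, 278 and 304 in SCC15 (0.73 ± 0.17, adjusted p = 0.00742) and 289.8, 256 and 225 against 391.7, 329 and 362 in SCC25 (-0.49 ± 0.11, adjusted p = 0.000947). The SCC25 call of CPQ was lost without DMSO replicate 2 (-0.62, adjusted p = 0.092), and the SCC15 calls of CPQ and SMYD3 were lost with equal library totals (0.19, adjusted p = 0.146, and 0.24, adjusted p = 0.139). The test of the difference was passed by all 9 genes called in opposite directions. It uses the same libraries as the calls by which these genes were chosen, so it adds no separate support.

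Some large changes in 1 cell line were found among genes named after their values were seen. AKAP6, an anchor of protein kinase A, had 34.8, 44.5 and 37.3 normalized counts with ACGs against 110.0, 111 and 119 with DMSO in SCC15 (-1.52 ± 0.16, adjusted p = 0.000236) and 22.9, 51.99 and 26.6 against 36.3, 38.7 and 40.7 in SCC25 (-0.27 ± 0.29, adjusted p = 0.405). RORA, a nuclear receptor, had 31.3, 33.1 and 29.9 against 81.9, 94.9 and 79.4 in SCC15 (-1.41 ± 0.17, adjusted p = 0.00038), where the groups were apart, and 47.03, 43.7 and 32.2 against 45.9, 49.5 and 59.3 in SCC25 (-0.33 ± 0.21, adjusted p = 0.17, and -0.54, adjusted p = 0.0344 with equal library totals). On the SCC25 side, PRKCA, the protein kinase C alpha gene, had 111, 96.7 and 85.5 against 229.7, 226 and 190.3 (-1.14 ± 0.13, adjusted p = 5.19e-06), and 363, 397 and 299.9 against 410.3, 417 and 418 in SCC15 (-0.24 ± 0.12, adjusted p = 0.119, and -0.74, adjusted p = 0.00702 with equal library totals). DPYD, which breaks down uracil and thymine, had 454, 439 and 449.6 against 986, 990.4 and 965 in SCC25 (-1.13 ± 0.057, adjusted p = 1.89e-09) and 1189, 1320.0 and 1409.7 against 1410.2, 1429 and 1460.5 in SCC15 (-0.14 ± 0.090, adjusted p = 0.221, -0.19, adjusted p = 0.00358 without ACGs replicate 3, and -0.63, adjusted p = 0.000442 with equal library totals). The responses differed by 1.25 (adjusted p = 0.0108) for AKAP6, 1.08 (adjusted p = 0.00442) for RORA, -0.89 (adjusted p = 0.00125) for PRKCA and -0.99 (adjusted p = 5e-06) for DPYD. TENM3, a teneurin that joins cells across their contacts, fell in both, by more in SCC15 (-1.41 ± 0.19, adjusted p = 0.000629) than in SCC25 (-0.35 ± 0.062, adjusted p = 0.000222), with a difference of 1.06 ± 0.20 (adjusted p = 0.000672). DNAH14, a heavy chain of axonemal dynein, rose in both (1.02 ± 0.16, adjusted p = 0.00124 in SCC15 and 0.86 ± 0.074, adjusted p = 3.01e-07 in SCC25, with a difference of -0.16 ± 0.18 that did not pass the test, adjusted p = 0.467).

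By role, counts are given on the authors' scaling, then with equal library totals and then without ACGs replicate 3 of each cell line, in the same order. Among all 112 genes, 25% rose and 36.6% fell in SCC15, and 33.9% and 35.7% in SCC25. With equal library totals these shares were 8.04% and 58.9%, and 26.8% and 45.5%. Without ACGs replicate 3 they were 29.5% and 44.6%, and 34.8% and 35.7%. The SCC25 response lay above that of SCC15 for 33.9% and below it for 16.1%. Each list holds few genes and was not tested against these shares, so its counts do not set a role apart. The 10 very long genes of the fragile site list were DMD, DLG2, FHIT, MAGI2, NAALADL2, WWOX, DPYD, IMMP2L, RORA and NBEA. Of these, 1 rose and 5 fell in SCC15, and 2 rose and 2 fell in SCC25 (median log2 fold changes -0.59 and -0.12). The counts were 1 and 6 in SCC15 and 1 and 5 in SCC25 with equal library totals, and 1 and 6 in SCC15 and 2 and 2 in SCC25 without ACGs replicate 3 of each cell line (medians -0.51 and -0.10). DMD, which encodes dystrophin and is the widest of all at 2.24 Mb, had 25.5, 26.2 and 26.1 normalized counts with ACGs and 47.8, 68.8 and 55 with DMSO in SCC15 (-1.09 ± 0.21, adjusted p = 0.00296). The SCC25 libraries held 153, 175 and 151 and 168, 168 and 167 (-0.076 ± 0.11, adjusted p = 0.533), and it passed the test as lower with equal library totals (-0.28, adjusted p = 0.0277). The groups were apart in SCC15 and overlapped in SCC25, and the responses differed by 1.02 ± 0.21 (adjusted p = 0.00146). DLG2, a scaffold protein of synapses and junctions that spans 2.17 Mb, went in opposite directions. It had 30.1, 26.2 and 33.6 against 64.8, 64.8 and 41.9 in SCC15 (-0.89 ± 0.24, adjusted p = 0.014) and 54.7, 37.4 and 38.9 against 31.4, 28.8 and 21.2 in SCC25 (0.66 ± 0.25, adjusted p = 0.0278). The difference was 1.55 ± 0.35 (adjusted p = 0.00232), while the single calls were lost in SCC15 without DMSO replicate 1 (-0.79, adjusted p = 0.0629) or 2 (-0.79, adjusted p = 0.0629), and in SCC25 without ACGs replicate 1 (0.49, adjusted p = 0.105) or DMSO replicate 3 (0.50, adjusted p = 0.114) and with equal library totals (0.46, adjusted p = 0.107).

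FHIT and WWOX, the genes at the best known fragile sites, did not pass the test in either cell line. FHIT, an enzyme that splits diadenosine triphosphate, spans 1.5 Mb and had 18.5, 11.4 and 16.2 normalized counts with ACGs against 15.4, 18.2 and 9.6 with DMSO in SCC15 (0.11 ± 0.35, adjusted p = 0.807) and 13.98, 27.04 and 28.9 against 16.9, 17.99 and 19.5 in SCC25 (0.28 ± 0.32, adjusted p = 0.438). WWOX, a WW domain oxidoreductase gene of 1.11 Mb, had 97.4, 141 and 103 against 120.3, 108 and 110.0 in SCC15 (-0.0038 ± 0.17, adjusted p = 0.986) and 47.03, 60.3 and 57.7 against 83.01, 54.9 and 56.7 in SCC25 (-0.22 ± 0.20, adjusted p = 0.351). The groups overlapped throughout. At the levels of FHIT, with standard errors of 0.35 and 0.32 on the log2 scale, small changes were not detectable at this depth. NAALADL2, the gene with the lowest mean, had 4.64, 12.5 and 7.47 against 14.5, 18.98 and 7.86 in SCC15 (-0.70, adjusted p = 0.241) and 20.3, 9.36 and 8.88 against 12.1, 9.89 and 14.2 in SCC25 (0.0048, adjusted p = 0.992).

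Of the 11 genes of junctions, polarity and adhesion, 2 rose and 5 fell in SCC15, and 4 rose and 6 fell in SCC25 (median log2 fold changes -0.25 and -0.25). The counts were 1 and 8 in SCC15 and 3 and 6 in SCC25 with equal library totals, and 2 and 5 in SCC15 and 4 and 6 in SCC25 without ACGs replicate 3 of each cell line (medians -0.24 and -0.26). In both cell lines, 2 rose, CDH13 and LPP, and 4 fell, MAGI2, CDH4, MAGI1 and TENM3. LPP, a LIM domain protein of focal adhesions, lost its SCC15 call without ACGs replicate 1 or 2 or DMSO replicate 1 or 3 (0.55 to 0.67, adjusted p = 0.0549 to 0.0617). MAGI1, a relative of MAGI2, lost its SCC15 call without ACGs replicate 2 or DMSO replicate 1, 2 or 3 (-0.27 to -0.36, adjusted p = 0.0662 to 0.149) and its SCC25 call without ACGs replicate 1 or DMSO replicate 2 or 3 (-0.33 to -0.42, adjusted p = 0.0625 to 0.107). The members moved in both directions, and the 3 widest, DLG2, MAGI2 and CDH13, included both a rise and a fall in SCC15. The receptor-type tyrosine phosphatases, which remove phosphate at the membrane and reach to the outside of the cell, held 2 very long genes. PTPRK had 2027, 1994 and 1992 normalized counts with ACGs against 1494, 1622 and 1506 with DMSO in SCC15 (0.38 ± 0.078, adjusted p = 0.00429, but -0.12 with equal library totals) and 3042, 2922 and 3057 against 2494, 2405 and 2507 in SCC25 (0.28 ± 0.042, adjusted p = 4.78e-05, and 0.077 with equal library totals, adjusted p = 0.122). PTPRG had 428, 413 and 327 against 596, 576 and 607 in SCC15 (-0.62 ± 0.12, adjusted p = 0.00357) and 248, 292 and 224 against 154, 168 and 162 in SCC25 (0.65 ± 0.11, adjusted p = 0.000192). The groups of PTPRG were apart in both cell lines, in opposite directions, and the difference was 1.26 ± 0.17 (adjusted p = 5.16e-05).

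Of the 10 genes of the cytoskeleton list, 1 rose and 5 fell in SCC15, and 3 rose and 5 fell in SCC25 (median log2 fold changes -0.66 and -0.21). The counts were 0 and 7 in SCC15 and 3 and 6 in SCC25 with equal library totals, and 3 and 6 in SCC15 and 3 and 5 in SCC25 without ACGs replicate 3 of each cell line (medians -0.44 and -0.26). In both cell lines, NAV3 rose and ANK3, ANK2 and DOCK1 fell, although ANK2 lost its SCC15 call without ACGs replicate 1 or DMSO replicate 1, 2 or 3 (-0.58 to -0.76, adjusted p = 0.0663 to 0.128). The ankyrins ANK2 and ANK3 tie membrane proteins to the spectrin skeleton, and DOCK1 activates the GTPase RAC1. In the difference between cell lines, 5 of the 10 lay above in SCC25 and 0 below. NAV2, a relative of NAV3, had 1153, 1064 and 1024 normalized counts with ACGs against 467, 504 and 484 with DMSO in SCC25 (1.15 ± 0.064, adjusted p = 4.78e-09). In SCC15 it had 937, 879 and 453 against 740.5, 654 and 688 (0.054 ± 0.26, adjusted p = 0.869), where replicate 3 lay below and the other ACGs libraries above all controls. Without ACGs replicate 3, NAV2 passed the test as higher in SCC15 (0.39, adjusted p = 2.61e-05), and the difference between cell lines over all libraries was 1.10 ± 0.29 (adjusted p = 0.00597).

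Of the 14 transcription and chromatin regulators, 4 rose and 6 fell in SCC15, and 6 rose and 3 fell in SCC25 (median log2 fold changes -0.41 and -0.018). The counts were 2 and 8 in SCC15 and 6 and 4 in SCC25 with equal library totals, and 4 and 6 in SCC15 and 6 and 3 in SCC25 without ACGs replicate 3 of each cell line (medians -0.21 and 0.026). CAMTA1, HDAC9 and SUPT3H rose in both and MECOM and TSHZ2 fell in both. HDAC9 is a histone deacetylase, and its SCC15 rise (0.36, adjusted p = 0.0462) had the other sign with equal library totals (-0.13) and lost its call without ACGs replicate 1 or 2 or DMSO replicate 1, 2 or 3 (0.27 to 0.38, adjusted p = 0.0945 to 0.138). RUNX1, a transcription factor of 1.22 Mb, had 2888, 2921 and 2747 normalized counts with ACGs against 2001, 2089 and 2050.1 with DMSO in SCC25 (0.48 ± 0.044, adjusted p = 5.84e-07). In SCC15 it had 1089.6, 1066 and 766 against 1100.5, 1115 and 1151 (-0.22 ± 0.14, adjusted p = 0.208), with ACGs replicate 3 the lowest, and it passed as lower with equal library totals (-0.72, adjusted p = 0.0154) but not without that library (-0.058, adjusted p = 0.336). The difference was 0.70 ± 0.15 (adjusted p = 0.00203). ZFHX3, a zinc finger homeobox transcription factor, had 430.1, 316 and 249 against 739.6, 738 and 766 in SCC15 (-1.21 ± 0.19, adjusted p = 0.00118), and 717, 716 and 704 against 707, 667 and 636 in SCC25 (0.090 ± 0.061, adjusted p = 0.196). Its SCC15 groups were far apart and its SCC25 groups overlapped, a difference of 1.30 ± 0.20 (adjusted p = 0.00018).

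Of the 13 genes of vesicle and membrane traffic, 3 rose and 5 fell in SCC15, and 4 rose and 6 fell in SCC25 (median log2 fold changes -0.36 and -0.36). The counts were 0 and 8 in SCC15 and 2 and 9 in SCC25 with equal library totals, and 4 and 8 in SCC15 and 4 and 6 in SCC25 without ACGs replicate 3 of each cell line (medians -0.19 and -0.34). In both cell lines, RABGAP1L and DENND1A rose and VPS13B, SNX29 and ERC1 fell, although DENND1A in SCC25 and RABGAP1L in SCC15 had the other sign with equal library totals (-0.016 and -0.27) and RABGAP1L lost its SCC15 call without ACGs replicate 1 or 2 or DMSO replicate 1, 2 or 3 (0.21 to 0.26, adjusted p = 0.0595 to 0.153). VPS13B, a lipid transfer protein of the Golgi, had 807, 890.2 and 501 normalized counts with ACGs against 1073, 1005 and 1071 with DMSO in SCC15 (-0.56 ± 0.20, adjusted p = 0.044) and 684, 639.5 and 696 against 983, 1028 and 975 in SCC25 (-0.56 ± 0.058, adjusted p = 1.66e-06). Its SCC15 call was lost without DMSO replicate 1 (-0.54, adjusted p = 0.115), 2 (-0.59, adjusted p = 0.0917) or 3 (-0.54, adjusted p = 0.113), and the change was smaller without ACGs replicate 3 (-0.31, adjusted p = 0.000136). TBC1D5, a protein that switches off the GTPase RAB7, had 109, 126 and 153 against 66.1, 77.4 and 69.04 in SCC25 (0.85 ± 0.16, adjusted p = 0.000299) and 1417, 1411 and 939 against 1545, 1555 and 1595 in SCC15 (-0.34 ± 0.16, adjusted p = 0.1). In SCC15 it passed as lower without ACGs replicate 3 (-0.15, adjusted p = 0.0111) and under equal library totals (-0.84, adjusted p = 0.0123), and the responses differed by 1.19 ± 0.22 (adjusted p = 0.000634). LRMDA passed the test in neither, with 0.46, adjusted p = 0.244 in SCC15 (0.099 without ACGs replicate 3) and -0.58, adjusted p = 0.115 in SCC25 (-0.30 without DMSO replicate 1), but passed as lower in SCC25 under equal library totals (-0.78, adjusted p = 0.0404).

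Of the 8 genes of kinases, phosphodiesterases and lipid or calcium signalling, 1 rose and 4 fell in SCC15, and 3 rose and 3 fell in SCC25 (median log2 fold changes -0.51 and -0.12). The counts were 1 and 6 in SCC15 and 3 and 4 in SCC25 with equal library totals, and 2 and 4 in SCC15 and 3 and 3 in SCC25 without ACGs replicate 3 of each cell line (medians -0.36 and -0.019). The SCC25 response lay above that of SCC15 for 6 and below it for 1. NRG1 rose and PLCL1 and RYR3 fell in both, as described above. PDE4D, which breaks down cAMP and spans 1.55 Mb, had 356, 342 and 386 normalized counts with ACGs against 881, 891 and 862 with DMSO in SCC15, 2.43-fold lower (-1.28 ± 0.088, adjusted p = 4.03e-05). The SCC25 libraries had 57.2, 53.03 and 44.4 against 62.1, 60.3 and 48.7 (-0.14 ± 0.19, adjusted p = 0.507), with overlapping groups, and the responses differed by 1.14 ± 0.18 (adjusted p = 0.000172). INPP4B, a phosphatase of phosphoinositides, had 98.5, 116 and 72.2 against 153, 164 and 167 in SCC15 (-0.77 ± 0.19, adjusted p = 0.00903) and 1225, 1376 and 1069 against 1326, 1273 and 1289.7 in SCC25 (-0.091 ± 0.077, adjusted p = 0.296). The SCC25 value passed as lower with equal library totals (-0.30, adjusted p = 0.00253) and without ACGs replicate 2 (-0.18, adjusted p = 0.0252), and the difference was 0.68 ± 0.21 (adjusted p = 0.014).

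Of the 10 metabolic and DNA maintenance enzymes, 3 rose and 0 fell in SCC15, and 2 rose and 3 fell in SCC25 (median log2 fold changes 0.052 and -0.013). The counts were 1 and 3 in SCC15 and 1 and 4 in SCC25 with equal library totals, and 3 and 2 in SCC15 and 2 and 3 in SCC25 without ACGs replicate 3 of each cell line (medians 0.059 and -0.012). IMMP2L and RAD51B, a gene of DNA repair, rose in both, the SCC15 value of RAD51B (0.41, adjusted p = 0.0461) with the other sign under equal library totals (-0.088) and its call lost without ACGs replicate 1 or 2 or DMSO replicate 1 or 3 (0.33 to 0.44, adjusted p = 0.0726 to 0.157). The short lists held 2 genes each. Of the RNA-binding list, RBMS3, which binds single-stranded RNA and DNA, had 108, 127 and 89.9 normalized counts with ACGs against 42.7, 37.8 and 35.4 with DMSO in SCC25 (1.45 ± 0.18, adjusted p = 9.55e-06). In SCC15 it had 595, 587 and 618 against 559.6, 621 and 551 (0.057 ± 0.089, adjusted p = 0.598), turning to -0.44 with equal library totals (adjusted p = 0.0065), and the difference was 1.40 ± 0.18 (adjusted p = 4.14e-05). CDKAL1, an enzyme that modifies transfer RNA, had 354, 282 and 309.8 against 230.3, 234 and 229 in SCC15 (0.44 ± 0.11, adjusted p = 0.0126, but -0.057 with equal library totals and 0.43, adjusted p = 0.0509 without DMSO replicate 3), and 0.11, adjusted p = 0.205 in SCC25. Of the glycan and matrix list, GMDS, which makes the precursor of GDP-fucose, had 239, 351 and 478 against 196, 228 and 219 in SCC15 (0.67 ± 0.23, adjusted p = 0.0386) and 754, 792 and 727 against 616, 593 and 549.7 in SCC25 (0.37 ± 0.066, adjusted p = 0.000217). Its SCC15 change was 0.43, adjusted p = 0.00533 without ACGs replicate 3, and its call was lost without ACGs replicate 2 (0.66, adjusted p = 0.0913) or DMSO replicate 1, 2 or 3 (adjusted p = 0.118, 0.0785 and 0.0892) and with equal library totals (0.18). THSD4, a protein of extracellular microfibrils, passed in neither (0.31, adjusted p = 0.221 in SCC15 and 0.10, adjusted p = 0.113 in SCC25), although without SCC15 ACGs replicate 3 it passed as higher there (0.58, adjusted p = 9.43e-09). KCNIP4, among the 10 widest at 1.22 Mb, modulates potassium channels and had -0.77, adjusted p = 0.0594 in SCC15 and -0.13, adjusted p = 0.69 in SCC25, and it passed as lower in SCC15 without ACGs replicate 3 (-0.93, adjusted p = 0.02), under equal library totals (-1.24, adjusted p = 0.00687), with TMM (adjusted p = 0.0477), with edgeR (adjusted p = 0.0386) and among genes with at least 10 in every library (adjusted p = 0.0418). The 40 genes in none of these lists included CREB5, EGLN3, SPOCK1, SPOCK3, SYNE1, ADGRL2 and LRRC7.

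**Figure D5:**
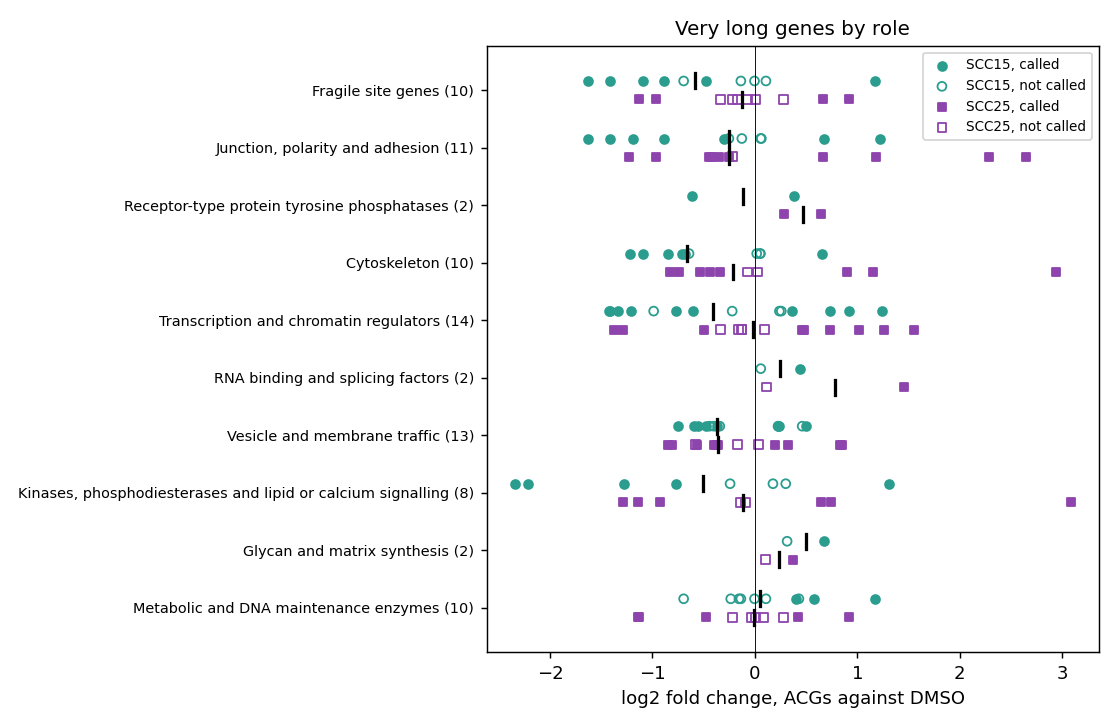
Log2 fold change with ACGs against DMSO (horizontal axis) of the very long genes in each role list (rows, number of genes in brackets), for SCC15 (green circles) and SCC25 (purple squares), filled where called, with black bars at the medians. On the authors' scaling, every list of 8 or more genes holds both called rises and called falls in SCC25.

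The machinery of transcription was also looked at in the same tables, from lists that are not themselves made of very long genes. Among topoisomerases and RNA-binding factors of long genes, 2 of 9 rose and 6 fell in SCC15 and 2 of 7 rose and 5 fell in SCC25. SFPQ, an RNA-binding factor known from the transcription of long genes, fell in both (-0.59, adjusted p = 0.00129 in SCC15 and -0.18, adjusted p = 0.00602 in SCC25). TOP2B fell in both (-0.30, adjusted p = 0.0131 and -0.12, adjusted p = 0.0472), whereas TOP1 fell in SCC15 (-0.48, adjusted p = 0.00558) and rose in SCC25 (0.15, adjusted p = 0.00494), where the rise did not hold with equal library totals (-0.058, adjusted p = 0.201). MATR3, another nuclear RNA-binding protein, rose in SCC15 (1.89, adjusted p = 0.00155) and was not tested in SCC25. Its SCC15 mean was 551 normalized counts with ACGs (SD 226) and 139 with DMSO, where SFPQ had 5410. These genes were named after their values were seen. Of the elongation factors, 15 of 39 rose and 12 fell in SCC15 and 12 of 39 rose and 17 fell in SCC25. Of the subunits of RNA polymerase II, 8 of 12 rose and 2 fell in SCC15 and 7 of 12 rose and 5 fell in SCC25. Of the factors of cleavage, polyadenylation and the U1 particle, 8 of 22 rose and 6 fell in SCC15 and 7 of 22 rose and 13 fell in SCC25. With equal library totals, 4 elongation factors rose and 19 fell in SCC15, 3 polymerase subunits rose and 3 fell, and 0 cleavage factors rose and 12 fell, and the topoisomerase list had 1 and 7. In SCC25 the corresponding counts were 9 and 22, 4 and 5, 6 and 14, and 0 and 5. Without ACGs replicate 3 of each cell line, 20 elongation factors rose and 13 fell in SCC15, and 9 polymerase subunits rose and 2 fell. Cleavage factors had 11 and 7 there, and the topoisomerase list 2 and 6. For SCC25 these counts were 16 and 18, 7 and 5, 8 and 13, and 2 and 4. The SCC15 median log2 fold change of the polymerase subunits was 0.75 with all libraries and 0.45 without that replicate. On the authors' scaling, 33.7% of the 11485 other protein-coding genes rose and 28.8% fell in SCC15, and 42.1% and 38.7% in SCC25. The machinery lists were not tested against these shares. A link between the machinery genes and the very long genes was not tested.

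At the span limit, the nearest genes inside were SPOCK3, KCNAB1 and DNAH14, with spans of 501412, 501437 and 503030 bases and log2 fold changes of -0.14, -1.13 and 1.02 in SCC15 and -3.43, -0.32 and 0.86 in SCC25. Those just outside were DIAPH3, CACNA2D1 and RPS6KA2, with 498404, 497354 and 497087 bases and -0.19, -0.43 and 0.27 in SCC15 and 0.66, 0.75 and -0.33 in SCC25. At the limit of the mean, which was set by SCC15 for all 6 genes nearest to it, NAALADL2, FOXP2 and PLCL1 lay inside with SCC15 means of 11, 12.2 and 12.9. FRMD4A, PLCB1 and GLIS3 lay outside with 9.85, 9.64 and 9.33, and had SCC25 means of 69.5, 231 and 90.6.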

How the data were processed

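RNA-seq of SCC15 and SCC25 cells with ACGs or DMSO was used (3 libraries per group). Per the submitters' processing notes, reads were aligned to GRCh38 with HISAT2 2.0.5 and counted per gene with featureCounts 1.5.0-p3. The authors deposited a signal for each gene and library, the read count over a size factor that each library shares among its genes, with the cell lines scaled separately. These are called normalized counts here. The SCC25 columns are headed FPKM, but the values are not per length. Multiplied back by the size factor, 100% of the values of every library were whole reads within 0.05, and these recovered reads were used for count tests. The authors also deposited fold changes and p-values of their own comparison, which were not used.

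Log2(normalized count + 1) was analysed in R 4.3.3 by limma 3.58.1 (two-sided, with a variance trend in eBayes) for genes with a mean of at least 10, with Benjamini-Hochberg adjustment over all 15902 genes tested in SCC15, 16539 in SCC25 and 14454 for the difference between cell lines, at an adjusted p of 0.05. The labels do not say that replicates are separate cultures, so p-values measure the spread between these libraries. Depth was 16665563 to 22748845 reads, and intervals cover counting error only, since reads carry no molecular identifiers.

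The genes, the role lists and the lists of the transcription machinery were chosen with earlier results of these data known. The lists were written from general knowledge. Genes named with values were the 10 widest, in each cell line the 5 largest rises and 5 largest falls without overlap between treatments, the 6 genes higher and the 6 lower in both with the largest smaller change, the 3 largest differences between cell lines in each direction, the 3 widest of each role list and the 3 nearest to each limit. Others were named after their values were seen.

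As alternatives, the pseudocount was 0.1 or 10, the filter was absent or at least 10 in every library, the scaling was equal totals or TMM, recovered reads were tested with edgeR 4.0.16 and DESeq2 1.42.0, the replicate number was a block, single libraries were omitted, the fold change had to pass 1 on the log2 scale, the span was at least 1000000 or 200000 bases, and only protein-coding genes entered the adjustment. Shares by level and span, the role lists and the machinery lists under equal totals, TMM or without single libraries were added after the data had been seen. Exons and overlaps come from GENCODE 44 and promoters from RefSeq. The script was tested on simulated data with known changes.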

Additional observations from a re-analysis of the deposited data

Results flagged for a closer look

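Of the genes named by the rule, 23 had responses that differed between the cell lines in the limma contrast itself, and each value here is the SCC25 log2 fold change minus that of SCC15. With both fold changes above 0, the SCC25 value was higher for NAV3 (2.29, adjusted p = 5.26e-06), SPOCK1 (2.12, adjusted p = 1.21e-05), NRG1 (1.77, adjusted p = 3.51e-06), RBMS3 (1.40, adjusted p = 4.14e-05), NAV2 (1.10, adjusted p = 0.00597), CDH13 (1.06, adjusted p = 5.87e-05) and CAMTA1 (0.63, adjusted p = 0.0227). With both below 0, the fall was smaller in SCC25 for RYR3 (1.28, adjusted p = 0.038), ADGRL2 (1.2, adjusted p = 3.38e-05), PDE4D (1.14, adjusted p = 0.000172), DMD (1.02, adjusted p = 0.00146) and INPP4B (0.68, adjusted p = 0.014). With values of opposite sign in the cell lines, the SCC25 value was higher for NEGR1 (2.78, adjusted p = 6.25e-06), SYNE1 (1.83, adjusted p = 3.94e-07), DLG2 (1.55, adjusted p = 0.00232), ZFHX3 (1.30, adjusted p = 0.00018), PTPRG (1.26, adjusted p = 5.16e-05), TBC1D5 (1.19, adjusted p = 0.000634) and RUNX1 (0.70, adjusted p = 0.00203). Also with opposite signs, the SCC25 value was lower for SUGCT (-1.57, adjusted p = 0.0194). With both below 0, the fall was larger in SCC25 for SPOCK3 (-3.30, adjusted p = 0.00123) and EGLN3 (-1.64, adjusted p = 3.39e-05). With both above 0, the rise was smaller in SCC25 for LRRC7 (-0.98, adjusted p = 0.0448).

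Of these differences, that of SPOCK3 rests on treated SCC25 libraries with at most 3 reads. With each of the 12 libraries left out in turn, 19 of the 23 passed every time and no sign changed. The call was lost for CAMTA1 in 6 of these 12 fits (adjusted p up to 0.0551), for LRRC7 in 9 of these 12 fits (adjusted p up to 0.114) and for RYR3 in 8 of these 12 fits (adjusted p up to 0.0971), and for SUGCT without SCC15 DMSO replicate 3 (adjusted p = 0.0539). Among all 112 very long genes, 38 differences lay above 0 and 18 below it past the threshold. No group had more than 3 libraries, so single libraries far from their group were not tested for.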

How the results depend on the processing

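In the order higher and lower in SCC15, then higher and lower in SCC25, 28, 41, 38 and 40 very long genes were called. The counts were 9, 66, 30 and 51 with equal library totals (where the medians were -0.69 and -0.31, and 7 genes responded lower in SCC25 than in SCC15, against 18), 7, 16, 12 and 11 with an absolute log2 fold change above 1, 2, 5, 6 and 2 for the 17 genes of at least 1000000 bases, and 146, 308, 281 and 320 for the 795 of at least 200000. With 1 library left out they ran 17 to 33, 26 to 50, 36 to 39 and 36 to 41, the difference calls 31 to 42 above and 13 to 26 below, and the medians -0.28 to -0.14 in SCC15 and -0.10 to -0.044 in SCC25. Under pseudocounts, filters, TMM, edgeR and DESeq2 all these counts, and under adjustment over protein-coding genes the 4 counts of higher and lower calls, stayed within 1.5 times and the medians within 1 SD of the treated libraries.

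Deviations of same-numbered libraries correlated at -0.051 to 0.0078 in all 6 pairs, so no large effect shared by replicate number was seen. A small shared effect could be missed by this check, and the labels do not say whether the libraries were paired. With the number as a replicate block the counts were 22, 37, 38 and 40, with 34 and 15 differences and medians of -0.20 and -0.11.

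Of 1342 values of single genes under the alternatives, 1260 kept direction and call, 38 lost and 15 gained the call, and 29 changed sign. With equal library totals the sign changed for CDKAL1 (SCC15, -0.057), CDKAL1 (SCC25, -0.096), FHIT (SCC15, -0.36), LRMDA (SCC15, -0.028), NAALADL2 (SCC25, -0.19), NAV2 (SCC15, -0.44), PTPRK (SCC15, -0.12), RBMS3 (SCC15, -0.44), SPOCK1 (SCC15, -0.19), SUGCT (SCC15, -0.058), SYNE1 (SCC25, -0.076), THSD4 (SCC15, -0.18), THSD4 (SCC25, -0.10) and ZFHX3 (SCC25, -0.12), of which RBMS3 in SCC15 passed the test (adjusted p = 0.0065) and no other did. It changed with a pseudocount of 0.1 for NAALADL2 (SCC25, -0.00037), with edgeR for RBMS3 (SCC15, -0.015), and with 1 library left out, given as the range over libraries, for FHIT (SCC15, -0.14 to 0.30), INPP4B (SCC25, -0.18 to 0.0027), KCNIP4 (SCC25, -0.30 to 0.020), NAALADL2 (SCC25, -0.35 to 0.20), NAV2 (SCC15, -0.14 to 0.39), NEGR1 (SCC15, -0.24 to 0.014), SPOCK3 (SCC15, -0.39 to 0.053) and WWOX (SCC15, -0.17 to 0.099). No sign change occurred for a gene called in both fits. The cause of these changes was not tested. Arms left with 2 libraries share the spread of the other groups, and genes near 10 counts are limited by depth.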
